A study of Mus musculus with 14 samples.

Results

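The 9 transcription factors described here, Sox2, Sox9, Sox10, Prox1, Rorb, Eya1, Pax2, Gata3 and Isl1, were taken by name as regulators of prosensory and supporting cells (SCs) of the cochlea, out of 35976 gene symbols counted. Their RNA was measured by RNA-seq in SCs sorted for EGFP from cochlear explants of Lfng-EGFP mice, in which a BAC transgene places EGFP under the regulatory sequences of Lfng. The mice were kept on a C57BL/6 background. Explants were taken at postnatal day 0 (P0; the growth protocol states P0-P1) or at P6 and were cultured for 24 hours with 2 μM compound E (CompE), which blocks γ-secretase, the protease that frees the intracellular domain of Notch, or with the same volume of DMSO. There were 4 libraries with each treatment at P0 and 3 with each at P6, and all 14 carried the same transgene and came from several cochleae pooled per tube. The labels place each CompE library and the DMSO library of the same replicate number in 1 batch, and none of the 6 batches holds both ages.

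In the developing cochlea, cells of the prosensory domain become either hair cells (HCs) or SCs. Notch signaling between them holds back the HC factor Atoh1 in the cells that become SCs. Sox2, an HMG-box factor, is needed to form the prosensory domain and stays on in SCs after birth. Sox9 and Sox10 are SoxE factors of the otic epithelium, and Sox10 is also a factor of Schwann cells and melanocytes. Prox1 is a homeobox factor of Deiters' cells and pillar cells, and Rorb, an orphan nuclear receptor, was used in the study as a marker of inner phalangeal and border cells. Eya1, a transcriptional co-activator and phosphatase, the paired-box factor Pax2, the zinc finger factor Gata3 and the LIM-homeobox factor Isl1 act from early stages of ear formation.

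Promoter sequences are shown for Sox2 and Rorb, whose levels differed with CompE in opposite directions in all 7 pairs of libraries, and for Prox1, which had the largest log2 fold change between the ages with DMSO. They are RefSeq windows of GRCm38.p6, 250 bases before to 50 bases from a transcription start, printed 5′ to 3′ on the strand of the gene. Capitals mark TGGGAA, the core of the sequence bound by Rbpj, the DNA-binding partner of the Notch intracellular domain, and the E-box letters CACGTG, their variant CACGCG and the N-box letters CACGAG, bound by Hes and Hey repressors, searched on both strands with no overlap between motifs in these windows.
Sox2, chr3:34649745-34650044, forward strand: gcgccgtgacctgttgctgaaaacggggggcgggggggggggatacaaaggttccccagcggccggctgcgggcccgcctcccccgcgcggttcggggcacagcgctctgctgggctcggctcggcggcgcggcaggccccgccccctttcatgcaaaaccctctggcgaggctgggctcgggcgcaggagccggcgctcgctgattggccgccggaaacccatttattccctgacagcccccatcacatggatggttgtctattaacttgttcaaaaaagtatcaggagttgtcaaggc
Rorb, first of its windows, chr19:19111147-19111446, reverse strand: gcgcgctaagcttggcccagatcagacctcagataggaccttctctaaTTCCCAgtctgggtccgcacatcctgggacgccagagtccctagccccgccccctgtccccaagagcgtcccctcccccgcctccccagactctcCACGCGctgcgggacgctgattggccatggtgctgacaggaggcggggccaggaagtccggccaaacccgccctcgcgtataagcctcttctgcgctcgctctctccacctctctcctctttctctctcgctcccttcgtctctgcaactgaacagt
Prox1, the other of its windows, chr1:190169466-190169765, reverse strand: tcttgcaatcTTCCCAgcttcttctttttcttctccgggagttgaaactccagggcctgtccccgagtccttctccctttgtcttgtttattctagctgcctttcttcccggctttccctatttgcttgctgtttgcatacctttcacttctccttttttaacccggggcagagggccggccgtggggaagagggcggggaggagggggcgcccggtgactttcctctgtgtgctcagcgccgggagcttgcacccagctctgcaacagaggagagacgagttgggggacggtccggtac
The Sox2 window holds none of these letters and is rich in CpG, with 27 CpG sites and 66.3% GC, where the median over all 32851 windows is 7 and 52.7%. It ends before the start of the GENCODE gene model of Sox2. The Rorb window holds TGGGAA on the other strand and CACGCG on the strand of the gene, and the Prox1 window holds TGGGAA on the other strand. TGGGAA is present in 25.6% of all windows and at least 1 of the 3 E-box and N-box motifs in 20.3%, so these matches are common, and they are a description and not sites of binding. RefSeq windows were matched for 6 of the 9 members (10 windows), and of the other 7 windows only 1 of Pax2 holds any of the letters searched, TGGGAA.

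**Figure D1:**
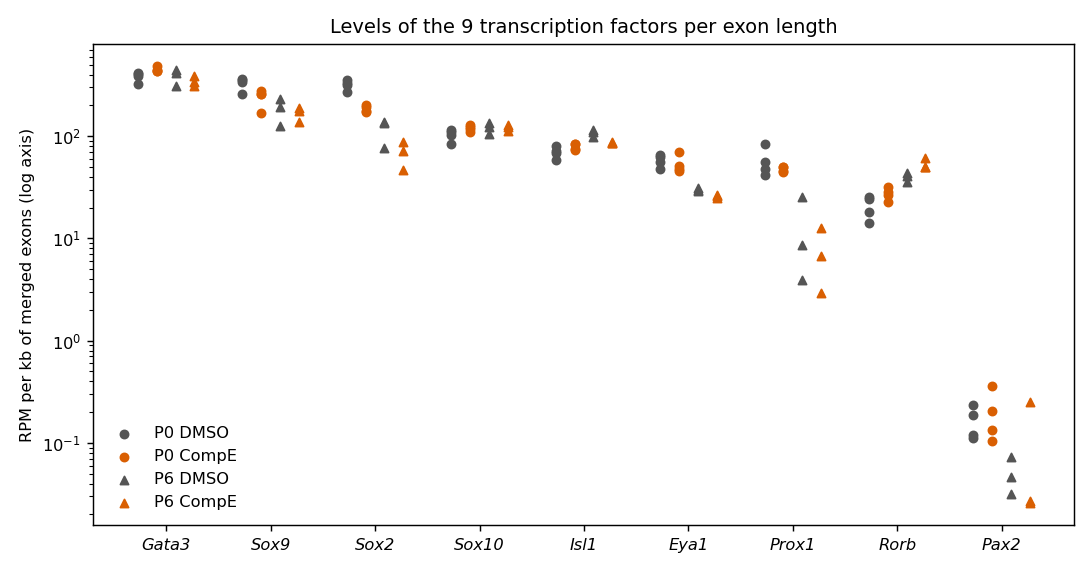
Levels of the 9 transcription factors in RPM per kb of merged exons (log axis), 1 point per library, for P0 (circles) and P6 (triangles) with DMSO (grey) and CompE (orange). Gata3 is the most abundant by the mean of each group, and all Pax2 libraries lie below 1.

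Levels were expressed as reads per 1000000 counted on genes (RPM), and between genes as RPM per kb of merged exon length. Gata3 had the highest level in P0 SCs with DMSO, at 380 ± 40.1 RPM per kb (SD, n = 4). Sox9 followed at 327 ± 46.1 and Sox2 at 317 ± 35.0 RPM per kb, and the libraries of each of these neighbours in the order overlapped. Sox10 came next at 103 ± 13.2 RPM per kb, below every Sox2 library. Isl1 at 69.7 ± 8.74, Eya1 at 57.7 ± 7.92 and Prox1 at 56.9 ± 18.5 RPM per kb overlapped with their neighbours. Rorb was at 20.6 ± 5.32 RPM per kb, below every Prox1 library. Pax2 was at 0.164 ± 0.0594 RPM per kb, from 19 to 39 counts per library.

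In P6 SCs with DMSO, Gata3 again had the highest level, at 392 ± 70.2 RPM per kb (SD, n = 3), above every library of the next gene. Sox9 at 184 ± 53.9, Sox10 at 120 ± 14.6, Sox2 at 116 ± 33.9 and Isl1 at 107 ± 8.99 RPM per kb each overlapped with the neighbour in the order. Rorb stood at 39.8 ± 4.16 RPM per kb, above every library of Eya1 at 29.9 ± 1.06 RPM per kb, the reverse of their order at P0. Prox1 was at 12.6 ± 11.2 and Pax2 at 0.0503 ± 0.0212 RPM per kb. With CompE the order at P0 was the same as with DMSO, but every Gata3 library, at 447 ± 27.5 RPM per kb (SD, n = 4), then lay above every Sox9 library, at 242 ± 50.2. At P6 with CompE, Sox2 at 68.6 ± 20.6 RPM per kb (SD, n = 3) came after Isl1 at 86.6 ± 0.453, with overlapping libraries.

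The libraries held 19415066 to 44430063 reads counted on genes. Of 18 SC marker genes, none was at 0 in any group, and their summed level was 15429 to 32208 RPM, much of it from Tectb, a tectorial membrane gene. At P0, 14 of the 18 had negative log2 fold changes with CompE, with a median of -0.47, 2 were called lower (Fabp7 and Hey2) and 7 were lower at an adjusted p of at most 0.05, while Tectb was higher at 0.71 (SE 0.16, edgeR adjusted p = 0.0400). At P6, 17 of 18 had negative log2 fold changes and 0 were called. The 14 HC markers were also all detected, with sums of 1665 to 3282 RPM with CompE and 803 to 1956 RPM with DMSO at P0, and of 722 to 1520 RPM with CompE and 551 to 1329 RPM with DMSO at P6. At P0, 12 of these 14 had a positive log2 fold change with CompE and 0 were called (3 with the replicate block). At an adjusted p of at most 0.05, 1 was higher (6 with the block). The log2 fold changes ran from -0.46 for Pvalb to 2.06 for Hes6, with a median of 0.49. Atoh1 averaged 194 RPM with CompE and 53.2 RPM with DMSO at P0. The 7 Notch targets, which check the treatment, had sums of 1070 to 1571 RPM with CompE and 3681 to 6240 RPM with DMSO at P0, where all 7 were lower and 5 were called. At P6 all 7 had negative log2 fold changes and 0 were called. Lfng itself, whose regulatory sequences drive the sorted EGFP, averaged 912 RPM with CompE and 2791 RPM with DMSO at P0, and 907 and 2018 RPM at P6. At P0 the mesenchyme markers summed to 1182 to 1356 RPM with CompE and 926 to 1090.0 RPM with DMSO, mostly from Lum, although 6 of the 7 had negative log2 fold changes and 0 were called. Whether a shift in the sorted cells had a part in the results below was not tested, and in these bulk libraries fewer cells of a type cannot be told apart from less RNA per cell.

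**Figure D2:**
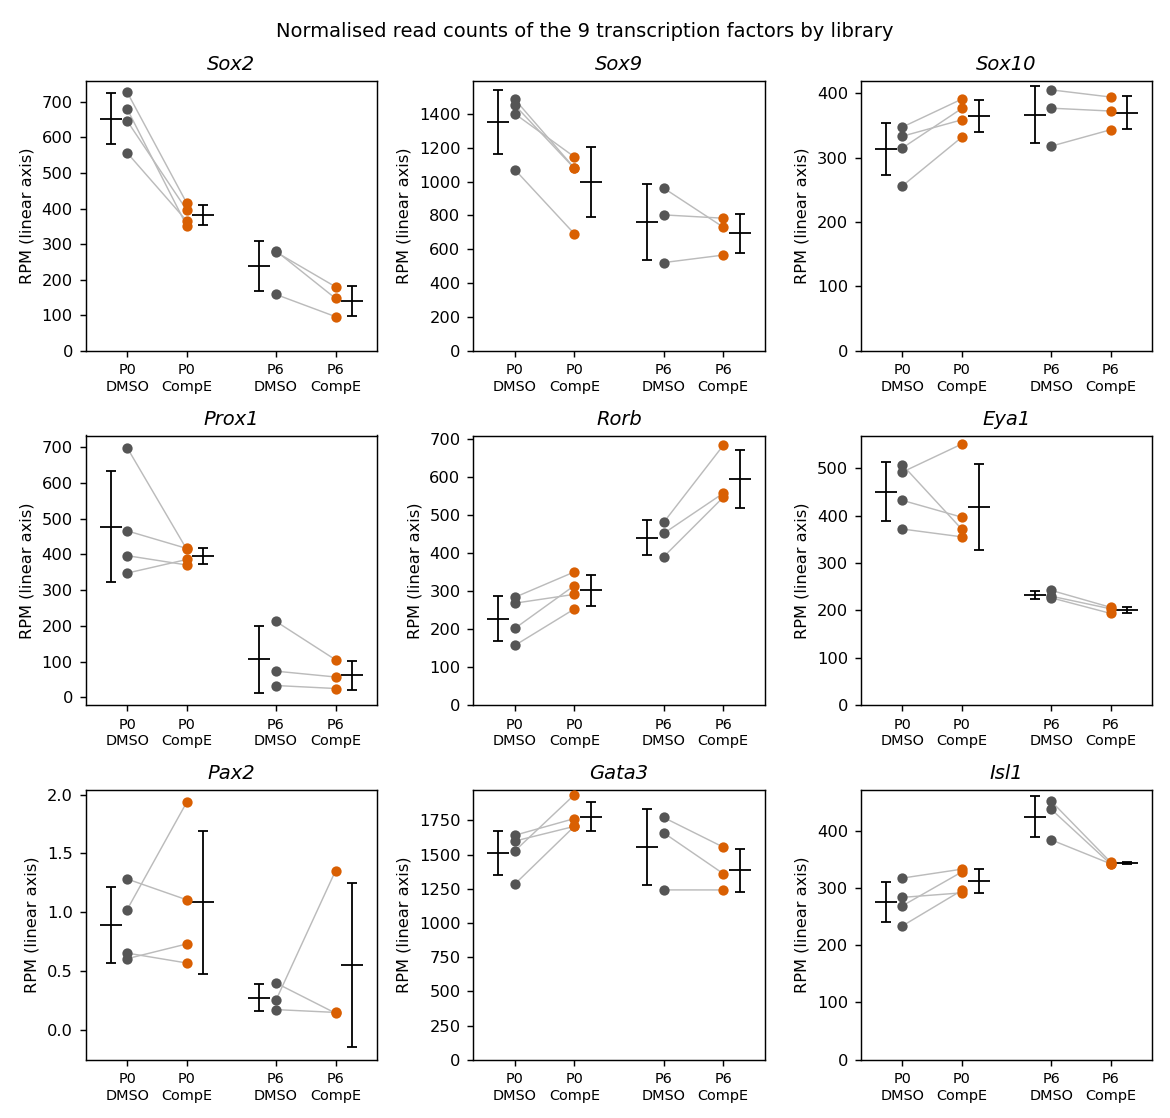
Normalised read counts (RPM, linear axes) of each transcription factor in the 14 libraries, with grey lines joining the DMSO (grey) and CompE (orange) libraries of 1 replicate number, and black bars giving the mean and SD of each group. Sox2 lines descend and Rorb lines ascend in all 7 pairs.

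Sox2 was the member with the largest difference between treatments at P0, and it was lower with CompE at both ages. It is encoded on chromosome 3 of GRCm38 from 34650405 to 34652461, on the forward strand. At P0, replicates 1 to 4 had 365, 416, 396 and 352 RPM with CompE and 557, 727, 646 and 680.0 RPM with DMSO. Every CompE library was below every DMSO library, with means of 382 ± 29.0 and 653 ± 72.0 RPM (SD, n = 4). At P6, replicates 1 to 3 had 180.0, 147 and 96.1 RPM with CompE and 278, 281 and 158 RPM with DMSO. Here the groups overlapped, since the DMSO library of replicate 3 was below the CompE library of replicate 1, while each CompE library was below its own DMSO partner.

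Within pairs, the log2 ratio of CompE to DMSO for Sox2 was -0.77 ± 0.15 (SD, n = 4 pairs) at P0 and -0.76 ± 0.16 (SD, n = 3 pairs) at P6. The P0 fit gave a log2 fold change of -0.81 (SE 0.14, edgeR adjusted p = 0.0104), a 1.76-fold lower level. That is under 2-fold, and the adjusted p was just above 0.01. Sox2 was thus not called under the thresholds of the study, an adjusted p up to 0.01 together with a 2-fold or larger change. Under those thresholds 0 of 9 members were called at P0 by edgeR, and 0 by DESeq2, where edgeR called 1.22% of the 15937 genes tested. At an unadjusted p under 0.05 there were 2 members, Sox2 and Sox9, among 2135 of all genes tested. At an adjusted p of at most 0.05 with no fold threshold, Sox2 was the 1 member of 9 past the threshold, against 3.87% of all genes tested. Without CompE replicate 4 the edgeR adjusted p for Sox2 was 0.0528, without both libraries of replicate 3 or of replicate 4 it was 0.0889 or 0.161, and with all 14 libraries in 1 fit it was 0.0968, at log2 fold changes between -0.76 and -0.83.

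A fit blocked on the replicate number, and so on libraries of 1 batch, gave a log2 fold change for Sox2 of -0.81 (SE 0.095, edgeR adjusted p = 0.00191) at P0. With the block 0 of 9 members were called under the 2-fold rule, against 2.2% of all genes, and 2 of 9, Sox2 and Sox9, passed at 0.05, against 7.5%. At P6 no gene of the 15322 tested was called by edgeR (0%), with 289 genes at an unadjusted p under 0.05, among them 1 member, Rorb. With the block 0 genes were called, and 1108 genes, among them 5 of the 8 members tested (Sox2, Prox1, Rorb, Eya1 and Isl1), were at an unadjusted p under 0.05. DESeq2 called 13 genes and 0 members at P6. The P6 log2 fold change of Sox2 was -0.75 (SE 0.32, edgeR adjusted p = 1.00), and with the block it was -0.75 (SE 0.096, edgeR adjusted p = 0.365). The difference between the P6 and the P0 response was 0.08 on the log2 scale (SE 0.34, edgeR adjusted p = 1.00) and 0.07 with the block (SE 0.13, edgeR adjusted p = 0.904), which does not show that the responses were alike.

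The genes whose profiles over the 14 libraries were most like that of Sox2 were Gm26507 and Mtss1l. The root mean square (RMS) difference of their centred log2(RPM + 1) values from those of Sox2 was 0.271 and 0.289, where Sox2 itself had an RMS of 0.867 about its mean. These and the like genes named below are the 2 nearest of 9988 genes averaging 10 RPM or more, a description over libraries that share treatment, age and batch.

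Sox9 was lower with CompE in all 4 pairs at P0 and had no common direction at P6. Sox9 lies on chromosome 11 from 112782224 to 112787760, on the forward strand. At P0 the CompE libraries held 691, 1080.0, 1146 and 1079 RPM and the DMSO libraries 1071, 1486, 1401 and 1451 RPM. Replicate 1 was the lowest of both treatments, and its DMSO library lay among the CompE libraries, so the groups overlapped. The log2 fold change was -0.47 (SE 0.21, edgeR adjusted p = 0.351) without the block and -0.49 (SE 0.096, edgeR adjusted p = 0.0197) with it. At P6 the values were 731, 783 and 566 RPM with CompE and 962, 803 and 521 RPM with DMSO. Replicate 3 was here the lowest of both treatments, and 2 of 3 pairs were lower. The log2 fold change at P6 was -0.12 (SE 0.27, edgeR adjusted p = 1.00), and it turned positive, at 0.07, without DMSO replicate 1. The 2 genes most like Sox9 were St5 and Itgb5, at RMS differences of 0.204 and 0.205. Sox9 itself had an RMS of 0.467 about its mean.

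Sox10 was close to level across the series. Sox10 lies on chromosome 15 from 79154908 to 79165240, on the reverse strand. Replicates 1 to 4 at P0 had 332, 377, 391 and 359 RPM with CompE and 256, 315, 348 and 334 RPM with DMSO, and the P6 libraries had 344, 373 and 394 RPM with CompE and 318, 377 and 406 RPM with DMSO. All 4 P0 pairs were higher with CompE while the groups overlapped, and 1 of 3 pairs was higher at P6. With TMM-scaled library sizes the replicate 2 pair at P6 was higher with CompE too. The log2 fold change was 0.18 (SE 0.14, edgeR adjusted p = 0.712) at P0 and 0.03 (SE 0.15, edgeR adjusted p = 1.00) at P6. Since Sox10 also marks Schwann cells and melanocytes, their lists were summed. The 10 Schwann and satellite glia markers gave 137 to 543 RPM, and their group means included 92.2 to 108 RPM for Erbb3, 14.5 to 171 RPM for Egr2, 41.9 to 54.7 RPM for Mbp and 0.247 to 0.863 RPM for Foxd3. The 7 melanocyte markers gave 24.8 to 76.5 RPM, with Tyrp1 at 0 in 3 of the 4 groups. The part of these cells in the Sox10 level was not tested. The 2 genes most like Sox10 were Pdcd6ip and Yme1l1, at RMS differences of 0.0929 and 0.101. Sox10 itself had an RMS of only 0.166 about its mean.

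**Figure D3:**
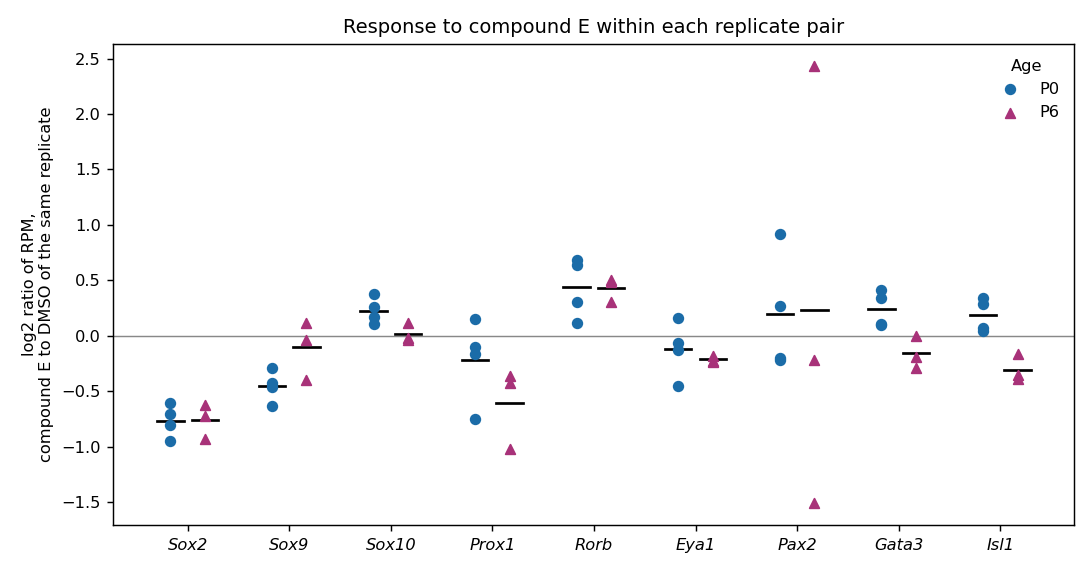
Log2 ratio of RPM in each CompE library to the DMSO library of the same replicate number, at P0 (circles, 4 pairs) and P6 (triangles, 3 pairs), with black bars for the means. Sox2 lies below 0 and Rorb above 0 at both ages, and Gata3 and Isl1 lie above 0 at P0 and at or below 0 at P6.

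Rorb and Prox1 belong to different SC types and were measured apart. Rorb was higher with CompE in all 7 pairs. Rorb lies on chromosome 19 from 18930605 to 19111196, on the reverse strand. At P0 replicates 1 to 4 had 253, 351, 292 and 315 RPM with CompE and 157, 284, 268 and 202 RPM with DMSO, with overlap between the groups. At P6 replicates 1 to 3 had 547, 683 and 557 RPM with CompE and 390.4, 481 and 452 RPM with DMSO, with no overlap. The mean log2 ratio within pairs was 0.44 ± 0.27 (SD, n = 4 pairs) at P0 and 0.43 ± 0.11 (SD, n = 3 pairs) at P6. The fits gave 0.36 (SE 0.22, edgeR adjusted p = 0.561) at P0 and 0.45 (SE 0.18, edgeR adjusted p = 1.00) at P6. With the block they gave 0.40 (SE 0.12, edgeR adjusted p = 0.103) and 0.44 (SE 0.086, edgeR adjusted p = 0.396), so Rorb did not pass over all genes at either age. Sox2 and Rorb were the 2 members, of 8 tested at both ages, with 1 direction in all 7 pairs, as were 7.88% of the 14755 genes tested at both ages. The 2 genes most like Rorb were Arhgap35 and Far1, at RMS differences of 0.165 and 0.195. Rorb itself had an RMS of 0.576 about its mean.

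Prox1 varied more between libraries of 1 group than with treatment. Prox1 lies on chromosome 1 from 190118035 to 190170714, on the reverse strand. At P0 it had 386, 415, 371 and 417 RPM with CompE and 348, 699, 397 and 466 RPM with DMSO. The CompE libraries lay within the range of the DMSO libraries, whose upper end was DMSO replicate 2. The log2 fold change was -0.31 (SE 0.22, edgeR adjusted p = 0.636), and -0.05 without that library. At P6 the levels were 105, 56.7 and 24.4 RPM with CompE and 212, 73.0 and 32.8 RPM with DMSO, a 6.47-fold range among DMSO libraries alone. All 3 pairs were lower with CompE, and the batches ranked the same way under both treatments. The P6 log2 fold change was -0.76 (SE 0.74, edgeR adjusted p = 1.00), or -0.59 with the block (SE 0.16, edgeR adjusted p = 0.544), and 0.22 without DMSO replicate 1. The 2 genes most like Prox1 were Crispld1 and Lgr5, at RMS differences of 0.369 and 0.370, where Prox1 had an RMS of 1.51 about its own mean. Lgr5, a Wnt pathway receptor of SCs, averaged 617 RPM with CompE and 506 RPM with DMSO at P0, and 78.7 and 134 RPM at P6.

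In batch 6, which holds replicate 3 at P6, the 7 mesenchyme markers summed to 3389 RPM with CompE and 4032 RPM with DMSO, against 926 to 2467 RPM in the other 4 P6 libraries. The macrophage markers were also highest there, at 94.8 and 40.4 RPM, and so were the endothelial markers, at 45.1 and 40.9 RPM. The spiral ganglion neuron markers summed to 114 and 134 RPM in these libraries, against 32.0 to 52.2 RPM in the other 4. The HC markers, at 1520 and 1329 RPM against 551 to 891 RPM, the glia markers, at 247 and 211 RPM against 137 to 197 RPM, and the melanocyte markers, at 76.5 and 67.6 RPM against 24.8 to 53.0 RPM, were higher there too. The SC marker sum was the lowest of each treatment at P6 in that batch, at 17967 RPM with CompE and 23548 RPM with DMSO. Sox2, Sox9, Prox1, Gata3 and Eya1 had their lowest P6 levels in that batch under each treatment. In RPM by library totals Sox10 had its highest P6 level there under each treatment, at 394 RPM with CompE and 406 RPM with DMSO. With TMM-scaled library sizes the highest P6 level of Sox10 was in replicate 2 under each treatment. Isl1 and Pax2 had their lowest P6 level in batch 6 with DMSO but not with CompE. Rorb was neither lowest nor highest in that batch under either treatment. With TMM-scaled library sizes Isl1, Pax2 and Rorb were each lowest in that batch with CompE. The part of these other cells in the members' levels was not tested. Without both libraries of replicate 3, the P6 log2 fold change of Sox2 was -0.76.

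In RPM by library totals, Gata3 and Isl1 were higher with CompE in every P0 pair and lower in every P6 pair. With TMM-scaled library sizes the replicate 3 pairs of Isl1 at P0 and of Gata3 at P6 changed direction. Gata3 lies on chromosome 2 from 9857078 to 9890034, on the reverse strand. For Gata3 the P0 libraries had 1707, 1764, 1707 and 1938 RPM with CompE and 1284, 1642, 1599 and 1527 RPM with DMSO, with no overlap between groups. With TMM-scaled library sizes the P0 groups of Gata3 overlapped. At P6 it had 1555, 1361 and 1242 RPM with CompE and 1772, 1659.7 and 1242 RPM with DMSO. The last pair differed by 0.0002 on the log2 scale, so the direction at P6 rests on 2 of the 3 pairs. Log2 fold changes were 0.19 (SE 0.14, edgeR adjusted p = 0.664) at P0 and -0.16 (SE 0.20, edgeR adjusted p = 1.00) at P6. The difference between the ages was -0.34 (SE 0.24, edgeR adjusted p = 1.00) and did not pass, nor did it with the block (-0.33, SE 0.14, edgeR adjusted p = 0.478). Zbtb9 and Natd1 were most like Gata3, both at an RMS difference of 0.120, where Gata3 had an RMS of only 0.197 about its mean.

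Isl1 had 333, 328, 292 and 296 RPM with CompE and 317, 269, 284 and 234 RPM with DMSO at P0, with overlapping groups. The replicate 3 pair at P0 differed by 0.04 on the log2 scale, and its direction depends on scaling by library totals. Isl1 lies on chromosome 13 from 116298281 to 116309689, on the reverse strand. The 3 CompE libraries at P6 lay within 342 to 345 RPM, below the DMSO libraries at 437, 452 and 384 RPM, with no overlap. The log2 fold change was 0.14 (SE 0.11, edgeR adjusted p = 0.692) at P0 and -0.30 (SE 0.14, edgeR adjusted p = 1.00) at P6. Of the members, Isl1 had the lowest p for a difference between the ages, -0.43 on the log2 scale (SE 0.17, edgeR adjusted p = 0.923), or -0.42 with the block (SE 0.13, edgeR adjusted p = 0.287). In that comparison 0 of 9 members were called by edgeR or by DESeq2, and Isl1 was the 1 member among 811 genes at an unadjusted p under 0.05. With the block there were 3 members, Isl1, Sox9 and Gata3, among 1686 genes. Of the 17090 genes tested, edgeR called 0% without and 0.0936% with the block. Emc3 and Uqcrq were most like Isl1, at RMS differences of 0.109 and 0.115, where Isl1 had an RMS of 0.248 about its mean.

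Eya1 had 551, 371, 355 and 397 RPM with CompE and 492, 507, 372 and 432 RPM with DMSO at P0, where 3 of 4 pairs were lower and the groups overlapped. Eya1 lies on chromosome 1 from 14168954 to 14310235, on the reverse strand. At P6 it had 203, 206 and 194 RPM with CompE and 230.1, 242 and 227 RPM with DMSO, lower in all 3 pairs with no overlap. With TMM-scaled library sizes the P6 groups overlapped, while all 3 pairs stayed lower. These P6 differences were the most even of all members, with pair log2 ratios from -0.23 to -0.18. Log2 fold changes were -0.15 (SE 0.15, edgeR adjusted p = 0.769) at P0 and -0.20 (SE 0.13, edgeR adjusted p = 1.00) at P6. Ivns1abp and Ankrd10 were most like Eya1, at RMS differences of 0.0995 and 0.136, where Eya1 had an RMS of 0.521 about its mean.

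Pax2 was near the limit of detection. Pax2 lies on chromosome 19 from 44756045 to 44837871, on the forward strand. It had 86, 11, 25 and 35 counts with CompE and 27, 26, 19 and 39 counts with DMSO at P0, or 0.567 to 1.94 and 0.603 to 1.28 RPM. At P6 it had 34, 4 and 4 counts with CompE and 6, 11 and 7 counts with DMSO, and it did not pass the filter on low counts there, so 8 of 9 members were tested at P6 and 9 of 9 in each other comparison. Its log2 fold change at P0 was 0.25 (SE 0.44, edgeR adjusted p = 0.897), and it was -0.15 without CompE replicate 1. Plppr2 and Mfsd10 were nearest to Pax2, at RMS differences of 0.211 and 0.218, where Pax2 had an RMS of 0.415 about its mean.

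Across the members, counts of pairs were read against those of all genes tested. At P0, 2 of 9 members (Sox2 and Sox9) were lower in every pair, as were 11.7% of genes, and 4 of 9 (Sox10, Rorb, Gata3 and Isl1) were higher, as were 17.4%. At P6, 5 of 8 tested members (Sox2, Prox1, Eya1, Gata3 and Isl1) were lower in every pair, against 17.1% of genes, and Rorb alone was higher, against 15.8%. Treatment groups did not overlap for 2 of 9 members at P0 (Sox2 and Gata3), against 9.88% of genes, and for 3 of 8 at P6 (Rorb, Eya1 and Isl1), against 7.19%. These counts of pairs and groups are in RPM by library totals. With TMM-scaled library sizes the groups of Gata3 at P0 and of Eya1 at P6 overlapped. The replicate 3 pairs of Isl1 at P0 and of Gata3 at P6 then changed direction. The shares of all genes were not counted with those sizes. The median log2 fold change of the members was 0.14 at P0 and -0.18 at P6, where the median over all genes tested was 0.01 and 0.00.

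**Figure D4:**
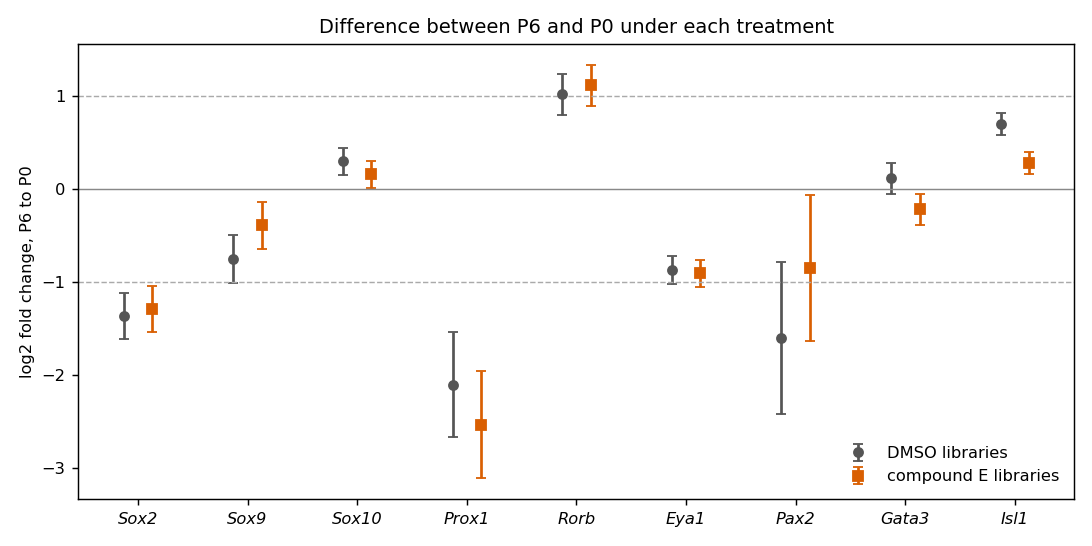
Log2 fold change of P6 to P0 for each transcription factor, in DMSO libraries (grey circles) and in CompE libraries (orange squares), with bars for the standard error of the edgeR fit and dashed lines at 2-fold. Sox2 and Prox1 lie below and Rorb above the dashed lines under both treatments.

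Between the ages, Sox2 was lower and Rorb higher at P6. In SCs with DMSO, Sox2 fell by 1.37 on the log2 scale from P0 to P6 (SE 0.25, edgeR adjusted p = 0.00169), from 653 ± 72.0 to 239 ± 69.8 RPM. Rorb rose by 1.01 (SE 0.22, edgeR adjusted p = 0.00531), from 228 ± 59.0 to 441 ± 46.1 RPM (SD, n = 4 at P0 and n = 3 at P6). These were the 2 of 9 members called by edgeR, 1 in each direction, against 7.12% of the 17090 genes tested. DESeq2 called 3 members, with Prox1, among 1993 genes called, where edgeR called 1216 genes. Rorb, at 2.02-fold, was just past the 2-fold threshold and was no longer called when any one of DMSO replicates 1 and 4 at P0 or 2 and 3 at P6 was left out, with log2 fold changes of 0.85 to 1.04. Each age has batches of its own, so age and batch cannot be told apart.

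At an adjusted p of at most 0.05 with no fold threshold, 6 of 9 members passed, against 22.5% of genes. Besides Sox2 and Rorb these were Prox1, lower by a log2 fold change of -2.11 (SE 0.56, edgeR adjusted p = 0.0165), Eya1 at -0.88 (SE 0.15, edgeR adjusted p = 0.00109), Sox9 at -0.76 (SE 0.25, edgeR adjusted p = 0.0466) and Isl1, higher at 0.70 (SE 0.12, edgeR adjusted p = 0.00112). Prox1 went from 477 ± 155 to 106 ± 94.2 RPM, and every P6 library was below every P0 library despite that spread. Without DMSO replicate 1 at P6 its log2 fold change was -3.08 and it was called, but without DMSO replicate 2 at P6 it was -1.92 (edgeR adjusted p = 0.0692), past neither threshold. It also missed 0.05 without both libraries of replicate 2 at P0 (edgeR adjusted p = 0.0556) or at P6 (0.0840). Sox9 missed 0.05 without most of the single libraries, up to an edgeR adjusted p of 0.161 without DMSO replicate 3 at P6, and without the filter on low counts (0.0620). Sox10 at 0.29 (SE 0.15, edgeR adjusted p = 0.173), Pax2 at -1.61 (SE 0.82, edgeR adjusted p = 0.177) and Gata3 at 0.11 (SE 0.17, edgeR adjusted p = 0.667) did not pass. Groups of the 2 ages did not overlap for 7 of 9 members, all but Sox10 and Gata3, and for 31.1% of genes. The median over members was -0.76, and over all genes -0.05.

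The age difference was also read from the CompE libraries, which share their batches with the DMSO libraries. The fit was the model of 14 libraries, so its SE and p rest on the spread within all 4 groups. Age and batch cannot be told apart in this contrast either. There 3 of 9 members were called, against 6.43% of genes: Sox2 at -1.30 (SE 0.25, edgeR adjusted p = 0.00254), Prox1 at -2.54 (SE 0.58, edgeR adjusted p = 0.00704) and Rorb at 1.11 (SE 0.22, edgeR adjusted p = 0.00308). Eya1 was lower at -0.91 (SE 0.15, edgeR adjusted p = 0.000897). For Isl1 the value was 0.27 (SE 0.12, edgeR adjusted p = 0.119) and for Sox9 -0.39 (SE 0.25, edgeR adjusted p = 0.282), and Gata3 was at -0.22 in place of 0.11 with DMSO.

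Other regulators of the ear are given from a list of 34 genes, of which 27 were tested at P0. There 1 was called, Gata2, the paralog of Gata3, at 53.8 ± 3.83 RPM with CompE and 21.2 ± 4.33 RPM with DMSO (SD, n = 4), a log2 fold change of 1.31 (SE 0.16, edgeR adjusted p = 0.00178). Eya2, the paralog of Eya1, had the highest log2 fold change of the list, 2.03 (SE 0.44, edgeR adjusted p = 0.0342), and was called with the block at 2.17 (edgeR adjusted p = 0.000604). It went from 11.0 ± 7.55 RPM with DMSO to 45.3 ± 15.8 RPM with CompE, while Eya1 itself did not pass. Tbx3 had the lowest value, -3.43 (SE 0.81, edgeR adjusted p = 0.0462), on 0 to 5 counts with CompE and 11 to 50 with DMSO. Id3, a BMP target, was called lower with the block at -1.04 (edgeR adjusted p = 0.00286). In all, 16 of the 27 had positive and 11 negative log2 fold changes, with a median of 0.02.

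Of 13 paralogs of the members, 9 were tested at P0, and Gata2 was the 1 called. Sox8, the third SoxE gene, had the lowest log2 fold change, -0.77, on 72 to 343 counts per library. At P6, 0 of 27 listed regulators and 0 of 10 paralogs were called. Between the ages with DMSO, 1 listed regulator rose, Gata2, by 2.67 on the log2 scale (SE 0.56, edgeR adjusted p = 0.00449). Its P6 libraries with DMSO averaged 130 ± 117 RPM (SD, n = 3), from 42.6 to 264 RPM, highest in batch 6. The 4 that fell were Sox11 at -2.86, Hmga2 at -2.52, Emx2 at -1.80 and Id3 at -1.39.

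Neighbouring annotations were checked, since the use of strand in counting is not given in the sources used here. The RNA gene Sox2ot overlaps Sox2 on the same strand with 0 shared exon bases and had 1.75 to 9.61 RPM. Of Prox1, 1.59% of exon bases also belong to an antisense gene, Prox1os, that has no row in the counts. Of Gata3, 3.90% belong to an antisense gene with no row and 1.94% to 9230102O04Rik on the same strand, at 16.3 to 41.0 RPM.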

How the data were processed

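Libraries were prepared with SMART-Seq v4 PLUS from EGFP+ SCs sorted from cochlear explants (P0: 4 CompE, 4 DMSO; P6: 3 CompE, 3 DMSO). Per the labels, reads were trimmed with Trim Galore 0.6.0 and cutadapt 1.15 and mapped with STAR to mm10, and the authors deposited 1 file per age with raw, unfiltered counts of 35976 gene symbols. The labels name STAR 2.7.0f. The annotation and the use of strand are not given in the sources used here. No molecular identifiers were used, so reads of a gene are not independent molecules, and precision rests on how far libraries of a group differ. Totals were 19415066 to 44430063 counts. That the libraries of a group came from separate cultures is not stated beyond their batches, so p-values measure the spread between these libraries.

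RPM was computed as counts divided by the library total, and RPM per kb with merged exon lengths of GENCODE M21 on GRCm38. Log2 fold changes were fitted over all genes with edgeR 4.0.16 in R 4.3.3 (TMM, filterByExpr with min.count 10, quasi-likelihood F test), each age alone with treatment as the term, and the age comparison and the difference of responses in a model of 14 libraries with 4 groups. Calls needed an adjusted p (Benjamini-Hochberg, over all genes) up to 0.01 and a change of 2-fold or more. Steps were tested on simulated counts.

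Replicate numbers pair the libraries through the batch label, and deviations from group means correlated between same-numbered libraries by 0.266 to 0.566 at P0 and 0.412 to 0.728 at P6 (11335 genes). Replicates 3 and 4 at P0 share a batch. Replicate libraries differed by more than sampling noise. Alternatives were DESeq2 1.42.0, DESeq2 size factors, no filter, a looser threshold, the replicate block, all libraries in 1 fit, TMM-scaled RPM and leaving out libraries. Chosen after the data were seen were leaving out pairs and the age comparison in CompE libraries.

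Named were the members, genes of the lists that were called or had the highest or lowest log2 fold change at P0, and the 2 genes most like each member, plus defining markers of other cell types. The members and lists were chosen with earlier results of these data known.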

Additional observations from a re-analysis of the deposited data

Results flagged for a closer look

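Sox9 in the CompE library of replicate 1 at P0 lay far from the other 3 of its group, at 691 RPM against 1079 to 1146 RPM. The DMSO library of the same replicate was also the lowest of its group, at 1071 RPM, and without the CompE library the P0 log2 fold change was -0.32. Among the 18 groups of 4 libraries examined in this way, chance would set apart about 0.9.

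In RPM by library totals, Gata3 and Isl1 had pairs that moved one way at P0 and the other way at P6. The difference of the log2 fold change at P6 from that at P0 was -0.34 for Gata3 (edgeR adjusted p = 1.00, and 0.478 with the replicate block) and -0.43 for Isl1 (edgeR adjusted p = 0.923, and 0.287 with the block). Neither difference passed over all genes, and for Gata3 the replicate 3 pair at P6 was level. That pair, and the replicate 3 pair of Isl1 at P0, changed direction with TMM-scaled library sizes.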

How the results depend on the processing

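The number of genes called at P0 was 195, and it was 443 with DESeq2, 350 with the replicate block, 617 at the looser adjusted p (0.05, any fold), 117 with all 14 libraries in one fit, and 1 to 225 when single libraries or pairs were left out, with 80 without CompE replicate 3 and 1 without the pair of replicate 4. With DESeq2 13 genes were called at P6. The difference of responses gave 33 genes with DESeq2, 1 without the filter, 2 at 0.05, 16 with the replicate block and 0 to 2 with libraries left out. P6 against P0 gave 1216 genes, 1993 with DESeq2, 3840 at 0.05 and 667 to 1281 with libraries left out. The members called were 0 at P0 and 2 between the ages, or 3 there with DESeq2 and 1 to 3 with libraries left out. At 0.05 they were 1 at P0 and 6 between the ages, or 0 to 2 and 4 to 6 with libraries left out. With the replicate block Sox9 at P0 passed 0.05, and no other member's call changed. Of the genes called at P0, 38 of 195 were higher with CompE, and 109 of 350 with the block.

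Of 750 member log2 fold changes under alternatives, 27 reversed, none of them past a threshold. With libraries left out, the range was -0.15 to 0.49 for Pax2 at P0. At P6 it was -0.35 to 0.070 for Sox9, -0.069 to 0.082 for Sox10 and -1.34 to 0.22 for Prox1. For the difference of responses it was -0.18 to 0.31 for Sox2, -0.069 to 0.26 for Rorb, -0.16 to 0.089 for Eya1, -1.01 to 0.55 for Prox1 and -1.19 to 1.62 for Pax2. Gata3 between the ages was -0.22 in CompE libraries. The cause was not tested. With TMM-scaled RPM, 3 of 36 member means moved by more than 1 SD between libraries, those of Eya1 at P6 with either treatment and of Isl1 at P6 with CompE. The treatment groups of Gata3 at P0 and of Eya1 at P6 then overlapped. The replicate 3 pairs of Isl1 at P0 and of Gata3 at P6 changed direction, and so did the replicate 2 pair of Sox10 at P6. No symbol in the files starts with mt-, so a total without mitochondrial genes gave no other value. Depth limits only Pax2, at 4 to 86 counts per library.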
